A study of Mus musculus with 6 samples.

Results

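The genes described here are the tonicity transcription factor Nfat5, the organic osmolyte transporters Slc6a12, Slc5a3, Slc6a6 and Slc38a2, and the tonicity-linked genes Ranbp3l, Smpd3 and Sgk1. They are 8 of the 34745 genes in the deposited table, found by gene symbol, and all 8 passed the filter on low counts that left 13407 genes for testing. Slc6a12 passed it through its D-gal libraries, with 140, 247 and 176 reads, since control replicates 2 and 3 held 5 and 4. The members were picked with their D-gal against control differences already known, so every such difference is given as a description without a p-value. The RNA came from NOR-10, a mouse cell line labelled as skeletal muscle fibroblast, in 2 groups with n = 3 libraries each. The control group received PBS, and the D-gal group received D-galactose at 20 mg/mL for 3 days, both in serum-containing medium. No group with another solute at the same concentration was analysed here, and nothing in the labels says that the replicates were separate cultures, so p-values measure only the spread between these libraries.

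Cells in a hypertonic medium lose water, and NFAT5 is the transcription factor best known for the slow adaptation that follows. It binds tonicity-responsive enhancers (TonE) and raises genes whose products load the cell with compatible organic osmolytes such as betaine, myo-inositol, taurine and sorbitol, which hold water without disturbing proteins as salts do. The pathway is best described in the kidney medulla, where it acts with chaperones and with the sodium pump, and it also operates in other cells, fibroblasts in culture included.

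Library totals ranged from 13759108 to 15157064 counts in the D-gal group and from 16876087 to 20830349 in the control group. Of 9 fibroblast markers, 8 reached 1 CPM (counts scaled to a common library total) in at least 1 library, Lum did not, and they summed to between 7150 and 7353 CPM with PBS and between 4692 and 4817 with D-gal. The defining markers Pax7, Myf5 and Myod1 of myogenic cells, Adipoq of adipocytes and Epcam of epithelium had a count of 0 in every library. Of those lists, only Des, Fabp4 and Cdh1 reached 1 CPM in any library. Epithelial markers summed to 7.0 to 8.48 CPM with PBS and 1.76 to 2.61 with D-gal. Endothelial sums were 4.52 to 5.4 and 3.09 to 3.38, and myogenic ones 3.12 to 3.6 and 1.94 to 2.15. Adipocyte and leukocyte sums overlapped between the groups. Endothelial, leukocyte, adipocyte, epithelial and myogenic markers each summed to at most 16.8 CPM. The leukocyte list reached that value in control replicate 1, against 4.03 to 6.37 in the other 5 libraries. Its sum holds 4 of its 5 genes, and in control replicate 1 it rests mainly on Csf1r and Cd68. Ptprc and Adgre1 stayed under 1 CPM in every library. Of the fibroblast markers, the collagen genes Col1a1, Col1a2 and Col3a1 had log2 fold changes of -0.71, -0.97 and -1.175, and Thy1 of -0.66. Changes of the other fibroblast markers are not given here. In bulk RNA, fewer cells of a type and less RNA per cell cannot be told apart.

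Of the members, 6 had higher values in the D-gal group and 2 had lower ones, and the ranges of the groups did not overlap in any of the 8, with 6 D-gal higher and 2 D-gal lower. Among all genes tested, 49.1% had groups that do not overlap, 24.1% with D-gal higher and 25.0% with D-gal lower. Slc6a12, Ranbp3l and Smpd3 lay past both thresholds of the study, namely 0.05 for the adjusted p and 1 for the size of the log2 fold change (Benjamini-Hochberg adjustment of edgeR's quasi-likelihood p), and all 3 were higher with D-gal. Of the genes tested, 4.21% passed both, 2.37% higher and 1.83% lower. At the adjusted p-value alone, 5 members lay past it with higher and 2 with lower values, beside 34.8% of all genes in either direction, and Nfat5 did not. Because the members were chosen on this contrast, nothing is read from these counts. The median log2 fold change was 0.48 over the 8 members and 0.00 over all genes tested.

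**Figure D1:**
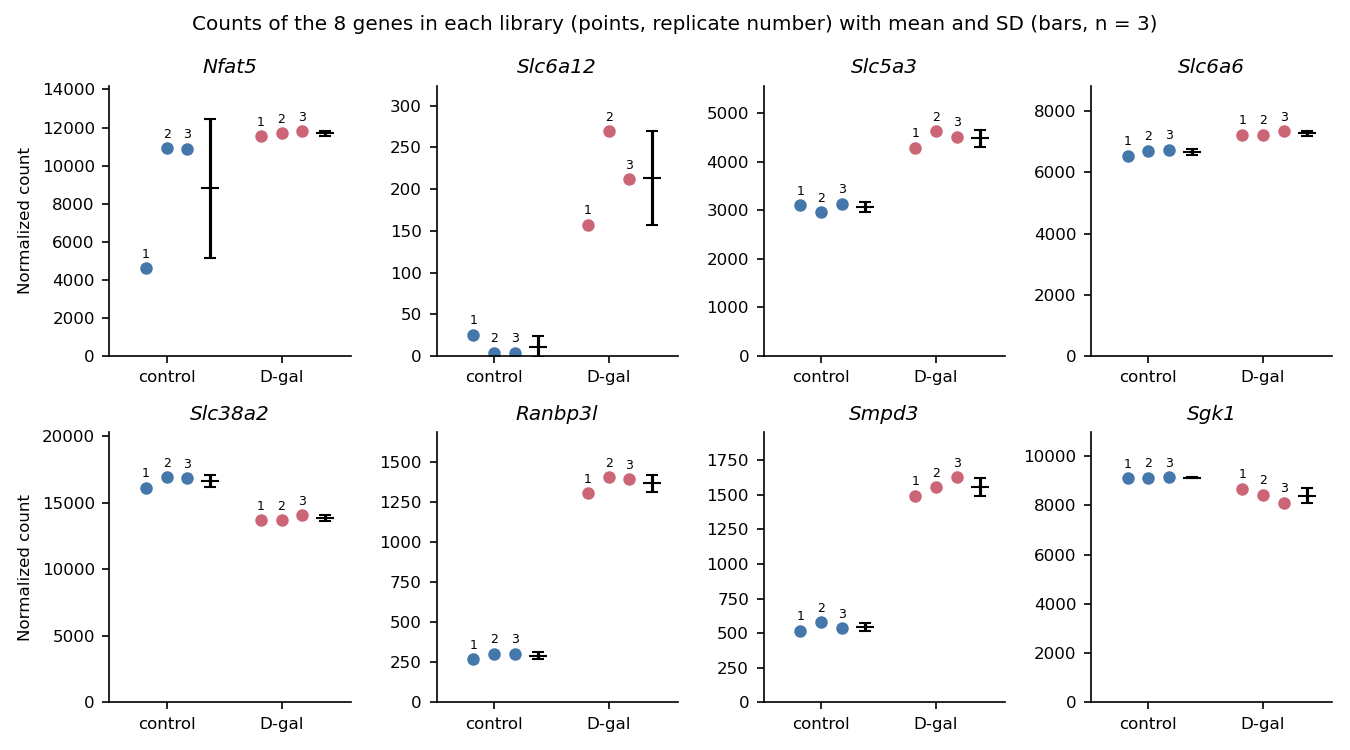
Normalized counts (y axis, counts scaled to the mean TMM library size, each panel from 0) of the 8 genes in the control and D-gal libraries, with the replicate number at each point and the mean and SD (n = 3) as a bar. Control replicate 1 stands apart from the other control libraries in Nfat5, where it is lowest at 4593, and in Slc6a12, where it is highest at 25.3.

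Nfat5 (ENSMUSG00000003847, GRCm38, chromosome 8, 107293470 to 107379517, plus strand) encodes the Rel-family factor at the head of the tonicity response. Its normalized counts were 4593, 10902 and 10892 in control replicates 1, 2 and 3, and 11536, 11708 and 11817 in D-gal replicates 1, 2 and 3. The first control library thus held far less Nfat5 than any other, while the remaining 5 libraries lay close together with the D-gal ones uppermost. The means were 8796 ± 3640 with PBS and 11687 ± 142 with D-gal (SD, n = 3 each), and the log2 fold change was 0.41 (standard error 0.28). Without control replicate 1 the control mean was 10897 and the log2 fold change 0.10 (standard error 0.03), so that library sets most of the difference. The deposited FPKM shows the same gap, with 6.80 in control replicate 1 and 16.1 in each of the other control libraries. Control replicate 1 had 19462852 counts in all, between the totals of the other control libraries. No annotated exon of another gene overlaps Nfat5 on either strand, and the deposited FPKM and count imply one gene length, 39806 bases, in all 6 libraries. Among 9171 genes with a mean of at least 200 normalized counts in the control group, 28 lay more than 2-fold below the mean of the other replicates in control replicate 1 and 11 lay more than 2-fold above it. The other 5 libraries had 18 to 30 such genes below and 7 to 17 above, so control replicate 1 was within the range of the series in their number.

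Slc6a12 (ENSMUSG00000030109, chromosome 6, 121343076 to 121365775, plus strand) encodes BGT1, the sodium- and chloride-coupled carrier of betaine and GABA and the classical NFAT5 target. Raw reads were few in the control group, at 29 in replicate 1, 5 in replicate 2 and 4 in replicate 3, against 140, 247 and 176 across D-gal replicates 1 to 3. After normalization the control libraries held 25.3, 4.08 and 4.04 and the D-gal libraries 157, 270 and 212. Every D-gal library was thus several times above the highest control library, and the control libraries differed 6.26-fold among themselves. The group means were 11.1 ± 12.2 and 213 ± 56.3 (SD, n = 3 each), a log2 fold change of 4.23 with a standard error of 0.50, and without control replicate 1 it was 5.67 with a standard error of 0.39. It ranked 6 among all tested genes by fitted log2 fold change, a place that rests on these few control reads. Its neighbour Slc6a13, which encodes the related GABA carrier GAT2, had 7 reads in control replicate 1 and 0 in each of the other 5 libraries. The leukocyte marker sum given above, mainly Csf1r and Cd68, was also highest in that library. Whether these values share a source was not tested.

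The promoter of Slc6a12 is shown because it holds the letters of the TonE consensus. RefSeq (GRCm38.p6) lists 5 start sites for the gene, and windows from 250 bases before to 50 bases after each were searched on both strands. The start site of the first window is the one furthest upstream, 502 bases before the GENCODE start of the gene, and the 250 bases before that site lie at chr6:121342324-121342573 on the plus strand. Capitals mark the TonE match, whose first base is 75 bases before the start site.
Slc6a12 upstream: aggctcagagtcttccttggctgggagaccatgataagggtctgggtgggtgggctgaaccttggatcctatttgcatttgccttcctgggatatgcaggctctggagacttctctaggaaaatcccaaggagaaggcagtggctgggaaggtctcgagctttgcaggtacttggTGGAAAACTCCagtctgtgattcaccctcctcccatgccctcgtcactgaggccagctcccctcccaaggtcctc
The TonE consensus occurs in 4.96% of all 32851 RefSeq windows of this length, and its core TGGAAA, which it contains, in 21.4%. Windows were found for 6 members, 15 in all, and Slc6a12 was the single one with the consensus, in 1 of its 5 windows. The core alone was found in Ranbp3l, 248 bases before its start site on the opposite strand (chr15:8967699-8967728), and in 2 of the Sgk1 windows, at 105 bases on the opposite strand (chr10:21882067-21882096) and at 163 bases on the gene's own strand (chr10:21993715-21993744). These 3 stretches of 30 bases are printed in the direction of the gene so that they can be set beside the Slc6a12 site, with the core or its reverse complement in capitals.
Ranbp3l: ctTTTCCAtttcgcttgtgcctgagaataa
Sgk1 first start site: ccttgctttctcTTTCCAtttacctttctg
Sgk1 internal start site: tcggagattagtTGGAAAaaaaagtgaaat
A match is a description of letters and not of binding, and enhancers outside these windows were not searched. In the windows of Nfat5, Slc5a3 and Slc38a2 the core letters were not found. Over the 15 windows of the members, 1 held the consensus and 4 the core, near the shares of all windows. Of 15 windows of tonicity-induced genes beyond the members, 0 held the consensus and 2 the core. Of 15 windows of osmolyte enzymes, 1 held the consensus, in Pnpla6, and 4 the core.

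Slc5a3 (ENSMUSG00000089774, chromosome 16, 92058322 to 92087473, plus strand) encodes SMIT1, the sodium-coupled myo-inositol transporter. It had 3104, 2961 and 3142 normalized counts in the control replicates and 4295, 4637 and 4523 in the D-gal replicates. All D-gal libraries lay above all control libraries by far more than the spread within a group. The means were 3069 ± 95.2 and 4485 ± 174 (SD, n = 3 each), 1.46-fold higher in the D-gal group, or 0.55 on the log2 scale (standard error 0.04). Slc5a3 sits at the start of Mrps6, which encodes a mitochondrial ribosomal protein. Their RefSeq start sites are 14 bases apart, and 318 bases of Slc5a3 exons overlap same-strand exons of Mrps6 and of Gm49711. Mrps6 itself was higher in the D-gal group (log2 fold change 0.39, standard error 0.09, adjusted p = 0.0102 in edgeR's test), and the summed counts of Slc5a3 and Mrps6 had a log2 fold change of 0.49 (standard error 0.05). How reads from the shared exons were divided between the genes is not given in the sources used here.

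Slc6a6 (ENSMUSG00000030096, chromosome 6, 91684053 to 91759066, plus strand) encodes TauT, the taurine and beta-alanine transporter of the same SLC6 family as BGT1. Normalized counts were 6548, 6709 and 6735 with PBS and 7228, 7232 and 7351 with D-gal. The groups did not overlap, but the step between them was small, 1.09-fold. The log2 fold change was 0.13 (standard error 0.03), and 117 bases of the gene's exons overlap Gm44981 on the other strand.

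Slc38a2 (ENSMUSG00000022462, chromosome 15, 96687394 to 96699698, minus strand) encodes SNAT2, a System A transporter that takes up small neutral amino acids with sodium and is known to be raised both by hypertonicity and by lack of amino acids. It was the member with most reads and one of 2 with lower values in the D-gal group. Its normalized counts were 16130, 16906 and 16851 in control libraries and 13689, 13704 and 14087 in D-gal libraries, without overlap. The means were 16629 ± 433 and 13827 ± 226 (SD, n = 3 each), a log2 fold change of -0.27 (standard error 0.03). Transporters thus differed in direction, with betaine, inositol and taurine carriers at higher values and the neutral amino acid carrier at lower ones.

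Ranbp3l (ENSMUSG00000048424, chromosome 15, 8968426 to 9066551, plus strand) encodes a RAN-binding protein that exports SMAD1 and SMAD5 from the nucleus and is among the genes induced by tonicity in kidney cells. Its normalized counts were 269, 303 and 304 in control replicates and 1306, 1403 and 1394 in D-gal replicates. The lowest D-gal library was more than 4 times the highest control library. The means of 292 ± 19.7 and 1368 ± 53.5 (SD, n = 3 each) gave a ratio of 4.68 and a log2 fold change of 2.23 (standard error 0.07). Of its sequence words of 31 bases, 6.12% also occur in transcripts of other genes.

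Smpd3 (ENSMUSG00000031906, chromosome 8, 106252548 to 106337988, minus strand) encodes neutral sphingomyelinase 2, which releases ceramide from sphingomyelin. Normalized counts were 519, 578 and 534 with PBS and 1491, 1553 and 1624 with D-gal. The groups were widely separated, with means of 543.5 ± 30.7 and 1556 ± 66.5 (SD, n = 3 each), a ratio of 2.86 and a log2 fold change of 1.52 (standard error 0.06). Its exons share 247 bases with Prmt7 on the other strand. Prmt7 did not pass the test (log2 fold change 0.08, standard error 0.08, adjusted p = 0.481 in edgeR's test).

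Sgk1 (ENSMUSG00000019970, chromosome 10, 21882184 to 21999903, plus strand) encodes a serine and threonine kinase that controls ion channels and transporters and is known as an early gene of osmotic stress, serum and glucocorticoids. Control libraries had 9099, 9127 and 9130 normalized counts and D-gal libraries 8668, 8426 and 8100. The D-gal values were the lower ones in all libraries. The fitted difference was -0.12 on the log2 scale (standard error 0.03), with means of 9119 ± 17.3 and 8398 ± 285 (SD, n = 3 each). Control libraries varied by 0.189% of their mean and D-gal libraries by 3.40%, both small beside the 41.4% of Nfat5 in the control group. At 9041 to 11185 reads per control library, counting alone would usually spread the values more than 0.189%. That figure is therefore no measure of the true spread.

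**Figure D2:**
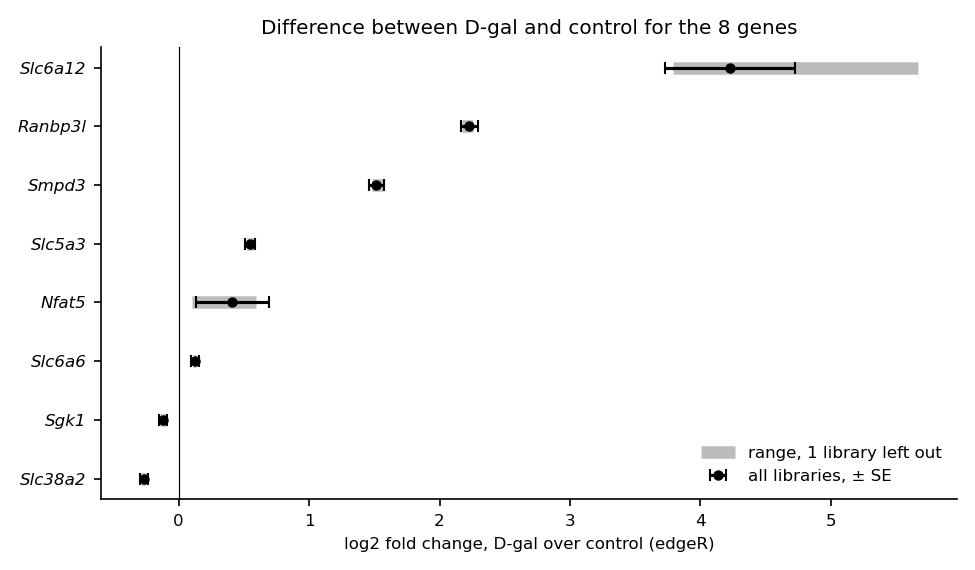
Log2 fold change of each gene, D-gal over control (x axis, edgeR), with the standard error as a bar and, in grey, the range when each library is left out in turn. Slc6a12 extends from 3.79 to 5.67 and Nfat5 from 0.10 to 0.60, while the widest range among the other 6 genes is that of Ranbp3l, 2.17 to 2.26.

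Levels of different genes were set side by side in CPM per kilobase of annotated exon. In the control group the order was Slc38a2 at 112 ± 2.92, Sgk1 at 111 ± 0.21, Slc6a6 at 47.0 ± 0.713, Nfat5 at 28.5 ± 11.8, Slc5a3 at 16.8 ± 0.52, Smpd3 at 6.19 ± 0.349, Ranbp3l at 2.54 ± 0.171 and Slc6a12 at 0.217 ± 0.239 (SD, n = 3). The ranges of Slc38a2 and Sgk1 overlapped, as did those of Nfat5 and Slc5a3, where control replicate 1 had 14.9 for Nfat5. For Slc6a12, control replicate 1 had 0.493 and the other control libraries 0.0797 and 0.0789. In the D-gal group no neighbours overlapped, and the order was Sgk1 at 102 ± 3.47, Slc38a2 at 93.2 ± 1.52, Slc6a6 at 51.2 ± 0.493, Nfat5 at 37.9 ± 0.46, Slc5a3 at 24.5 ± 0.951, Smpd3 at 17.7 ± 0.757, Ranbp3l at 11.9 ± 0.465 and Slc6a12 at 4.16 ± 1.10 (SD, n = 3). Slc6a12 therefore stayed the lowest member on this scale in spite of the largest fold, at percentile 26.8 of the tested genes over all libraries, while Sgk1 stood at percentile 97.4 and Slc38a2 at 97.3.

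**Figure D3:**
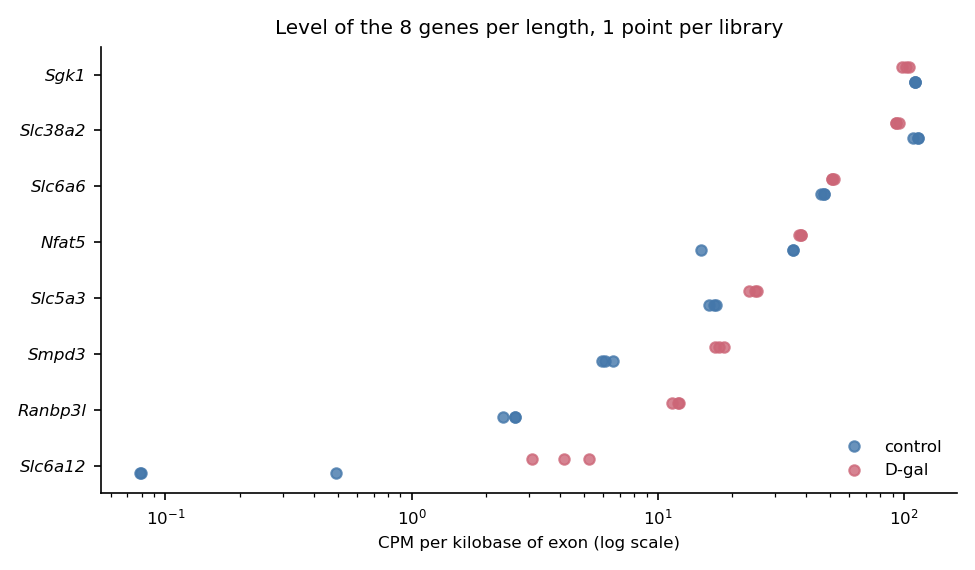
Level of each gene in CPM per kilobase of exon (x axis, log scale), with 1 point per library, control in blue and D-gal in red. Sgk1 and Slc38a2 lie near 100 in both groups, and within each group Slc6a12 lies below all other members, from 0.0789 in control replicate 3 to 5.27 in D-gal replicate 2.

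The order depends on the gene length used. The deposited FPKM values divide by 39806 bases for Nfat5, where the distinct exonic bases in the annotation come to 18378, and by 4626 bases for Slc38a2, where they come to 8838. By deposited FPKM, Slc38a2 led in both groups (211 ± 5.12 and 180 ± 3.19, SD, n = 3), ahead of Sgk1 (52.4 ± 0.0604 and 49.4 ± 1.57), and in the D-gal group Nfat5 stood at rank 7 at 17.7 ± 0.268. Slc6a12 was lowest on both scales.

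The summed level of the betaine, inositol and taurine transporters, in CPM per kilobase, was 63.9 ± 0.653 with PBS and 79.9 ± 2.15 with D-gal (SD, n = 3), with ranges of 63.5 to 64.7 and 77.5 to 81.5. With Slc38a2 added, the sum of the 4 transporters was 176 ± 3.26 and 173 ± 3.04, and the ranges of 172 to 178 and 170 to 176 overlapped. On this scale the total thus moved little, and its makeup differed. Sum and shares depend on the gene length used and were not computed from the deposited FPKM. Those values weight Slc38a2 more, at 211 with PBS and 180 with D-gal, beside 36.2 and 40.5 for Slc6a6. A total that moved little is therefore stated for CPM per kilobase only. Of the sum of the 4 transporters in CPM per kilobase, Slc38a2 made up 63.7% ± 0.551 with PBS and 53.9% ± 0.681 with D-gal. Slc6a12 made up 0.125% ± 0.139 and 2.40% ± 0.611 (SD, n = 3). The control share of Slc6a12 rests on control replicate 1, at 0.286%, with 0.0449% and 0.0442% in control replicates 2 and 3.

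Other genes of the pathway were taken from lists, also written with earlier results of these data known, and are given with edgeR's test over all genes. In the plot of these lists and in the text below, a gene counts as higher or lower at an adjusted p-value under 0.05, which 16.9% of all genes tested passed as higher and 17.8% as lower.

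Among tonicity-induced genes beyond the members, 8 of the 15 tested were higher, none was lower (0 also at an unadjusted p under 0.05 and in DESeq2), and 7 did not pass. Their median was 0.62 on the log2 scale, beside 0.00 over all genes. The list was written with earlier results of these data known, so its count and median are given as a description only. Atp1b1, the beta subunit of the sodium pump, had 786 ± 14.4 normalized counts with PBS and 3101 ± 272 with D-gal (SD, n = 3; log2 fold change 1.98, adjusted p = 1.88e-06 in edgeR's test). The osmotic stress chaperone Hspa4l rose from 2569 ± 7.46 to 8260 ± 415 (log2 fold change 1.69, adjusted p = 1.02e-06 in edgeR's test), and the small heat shock protein gene Cryab from 2123 ± 24.4 to 6459 ± 731 (1.61, adjusted p = 7.58e-06 in the same edgeR test). Atp1b1 and Cryab overlap exons on the other strand, of Nme7 and Hspb2. The water channel Aqp1 (0.99), the lymphatic growth factor Vegfc (0.91), the inducible Hsp70 gene Hspa1b (0.82) and the cyclooxygenase gene Ptgs2 (0.62) were also higher, by log2 fold change. Hspa1b shares 68.1% of its sequence words with other genes, and its near copy Hspa1a had 108 and 88.4 normalized counts, so the division between them is uncertain. S100a4, Ccl2, Gadd45a, Gadd45b and Gadd45g had log2 fold changes between -0.04 and 0.09 and did not pass, nor did Aqp5, with a log2 fold change of 1.20 on 3 to 17 reads (adjusted p = 0.0827 in edgeR's test).

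Among the enzymes that make or break down osmolytes, 3 of 12 were higher and 3 lower. Akr1b3, an aldose reductase that forms polyols such as sorbitol from sugars, rose from 536 ± 30.5 to 2688 ± 357 normalized counts (SD, n = 3; log2 fold change 2.33, adjusted p = 4.47e-06 in edgeR's test) and shares 15.2% of its sequence words with other genes. Cdo1, the cysteine dioxygenase of taurine synthesis, rose from 85.5 ± 9.16 to 378 ± 5.47 (2.14, adjusted p = 7.87e-06 in the same edgeR test), whereas Csad, the next enzyme of that route, had 482 and 471. Pnpla6, a phospholipase that yields the osmolyte glycerophosphocholine, was higher (0.54). Sord, which turns sorbitol to fructose (-0.76), and the inositol monophosphatases Impa2 (-0.71) and Impa1 (-0.32) were lower. The betaine-forming Chdh had at most 4 reads in any library, and Bhmt and Miox had 0. In the polyol route the sorbitol-forming Akr1b3 was thus higher and the sorbitol-using Sord lower. The inositol genes that passed were both lower, and Isyna1 did not pass (0.44). Sord shares 35.9% of its sequence words with other genes.

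Of 16 further osmolyte or related transporters, 8 had enough counts to test. Slc2a13, the proton-coupled myo-inositol transporter, was the only one higher, with 36.4 ± 7.54 and 72.9 ± 9.72 normalized counts (SD, n = 3; log2 fold change 1.01, adjusted p = 0.00715 in edgeR's test). The creatine transporter Slc6a8 (-0.44) and the choline transporter Slc44a1 (-0.40) were lower. The System A relatives of Slc38a2 did not pass the test, Slc38a1 with a log2 fold change of -0.05 and Slc38a4 with 0.17.

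Among 22 regulators and partners of NFAT5, 3 were higher and 4 lower, 31.8% beside 34.8% of all genes, whereas DESeq2 called 1 higher and 5 lower. Changes past the test were between -0.15 and 0.16 on the log2 scale in 5 of the 7, among them the scaffold genes Ccm2 (0.16) and Spag9 (-0.12) and the kinase gene Atm (0.16). The p38 activator Map2k6 was lower (-0.71), and so was the phosphatase gene Ptpn6 (-1.44, standard error 0.44, adjusted p = 0.0358 in edgeR's test). Ptpn6, which leukocytes express strongly, overlaps Gm20531 on the other strand. It had 88.9 normalized counts in control replicate 1 and 41.6 and 35.4 in the other control libraries. The leukocyte marker sum, mainly Csf1r and Cd68, was also highest in control replicate 1, while Ptprc and Adgre1 were under 1 CPM in every library. A part of leukocytes in this result was not tested. The number past the test was 4 without control replicate 1 and also 4 without D-gal replicate 3. The p38 gene Mapk14 (0.21), and the helicase genes Dhx9 (-0.07) and Ddx5 (-0.12), which bind NFAT5, did not pass.

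The 4 calcineurin-dependent NFAT genes, relatives of Nfat5 that respond to calcium, were tested as a list. Nfatc4 fell from 2111 ± 108 to 1471 ± 19.0 normalized counts (SD, n = 3; log2 fold change -0.52, adjusted p = 1.15e-04 in edgeR's test) and Nfatc2 from 47.3 ± 8.61 to 28.5 ± 1.34 (-0.72, adjusted p = 0.0305 in edgeR's test). None was higher (0 also at an unadjusted p under 0.05 and in DESeq2), and Nfatc1 (-0.21) and Nfatc3 (-0.05) did not pass. With control replicate 1, control replicate 3, D-gal replicate 1 or D-gal replicate 3 left out, 1 gene passed in place of 2.

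**Figure D4:**
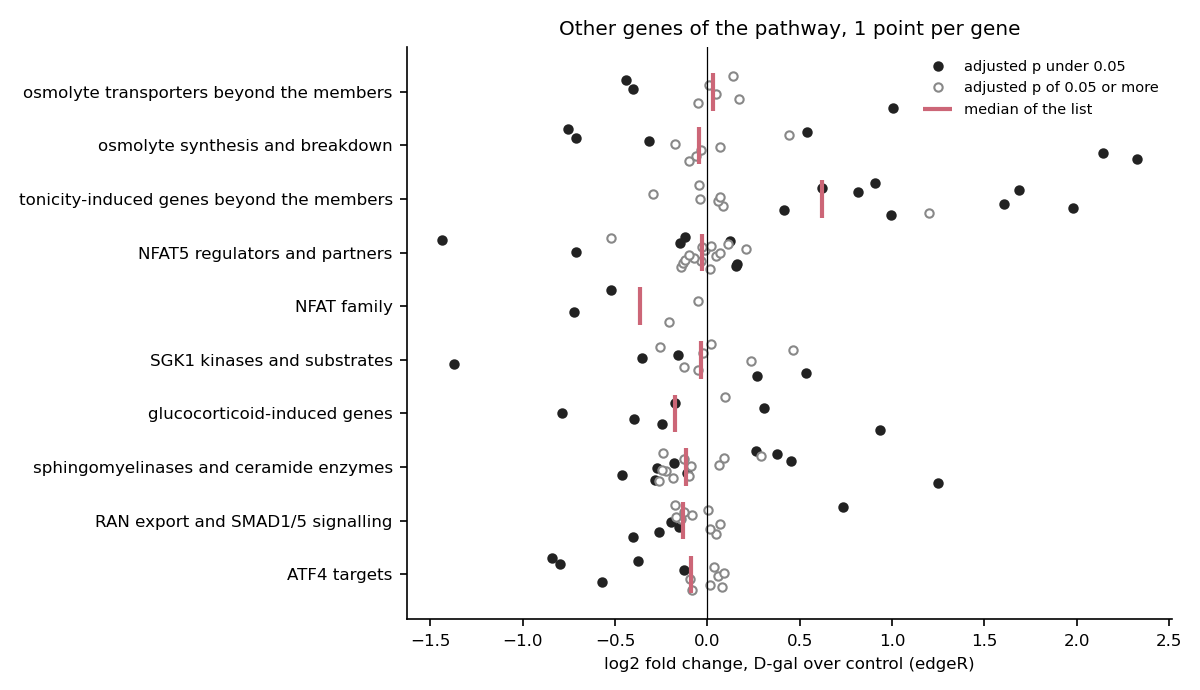
Log2 fold change, D-gal over control (x axis), for each tested gene of the 10 lists (rows), filled where the adjusted p-value is under 0.05 and open otherwise, with the list median as a red bar. Tonicity-induced genes have the highest median, 0.62, with 8 of 15 filled points to the right of 0 and none filled to the left. NFAT family genes have the lowest median, -0.36. The lists were written with earlier results of these data known, so counts and medians only describe them.

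Around Sgk1, 2 of 12 upstream kinases and substrates were higher and 3 lower. Ndrg1, whose protein is a standard phosphorylation target of SGK1, fell from 740 ± 22.8 to 286 ± 34.3 normalized counts (SD, n = 3; log2 fold change -1.37, adjusted p = 2.99e-05 in edgeR's test) and overlaps genes on the other strand. The ubiquitin ligase gene Nedd4l (-0.35) and the activating kinase gene Pdpk1 (-0.16) were lower, while the mTORC2 component Mapkap1 (0.54) and the transcription factor gene Foxo3 (0.27) were higher. Sgk2 had at most 3 reads, and Sgk3 did not pass (-0.26).

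Since Sgk1 also answers to glucocorticoids, 7 genes linked to that response were tested, and 2 were higher and 4 lower. Dusp1, a phosphatase of MAP kinases with 11 exonic bases shared with Ergic1 on the other strand, rose from 1277 ± 71.8 to 2446 ± 24.6 (SD, n = 3; log2 fold change 0.94, adjusted p = 9.03e-06 in edgeR's test), and Klf9 fell from 706 ± 27.6 to 409 ± 47.8 (-0.79, adjusted p = 4.01e-04 in edgeR's test). The receptor gene Nr3c1 was higher (0.31), and Fkbp5 (-0.40), Errfi1 (-0.24) and Per1 (-0.18) were lower, so these genes did not share a direction. Tsc22d3 did not pass (0.10).

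For Slc38a2, which amino acid lack raises through ATF4, 5 of 12 ATF4 pathway genes were lower and none was higher (1 at an unadjusted p under 0.05 and 0 in DESeq2). The pseudokinase gene Trib3 fell from 208 ± 17.3 to 116 ± 11.7 normalized counts (SD, n = 3; log2 fold change -0.84, adjusted p = 0.00116 in edgeR's test), and Ddit3 from 823 ± 29.3 to 553 ± 51.4 (-0.57, adjusted p = 8.25e-04 in edgeR's test), though Ddit3 overlaps exons of other annotated genes. Slc7a11 (-0.80), Slc7a5 (-0.38) and Slc3a2 (-0.12), subunits of amino acid exchangers, were lower too. Atf4 (0.08) and Asns (-0.08) did not pass.

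Among 20 enzymes of sphingomyelin and ceramide metabolism, 4 were higher and 5 lower, with 4 and 3 in DESeq2. Acer2, an alkaline ceramidase gene, rose from 68.3 ± 12.4 to 163 ± 4.61 normalized counts (SD, n = 3; log2 fold change 1.25, adjusted p = 4.66e-04 in edgeR's test). The acid sphingomyelinase gene Smpd1 was higher (0.45), and the neutral ones Smpd2 (-0.13) and Smpd4 (0.09) did not pass. Smpd3 had the largest log2 fold change beside them, 1.52. The list count of 9 was 5 without control replicate 1 or D-gal replicate 3, and 3 without control replicate 3 or D-gal replicate 2.

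Of 14 genes of RAN-dependent export and of the SMAD1 and SMAD5 pathway, on which RANBP3L acts, 1 was higher and 4 lower. Smad9, a further BMP-activated SMAD, rose from 408 ± 20.8 to 678 ± 13.1 normalized counts (SD, n = 3; log2 fold change 0.73, adjusted p = 9.66e-05 in edgeR's test). The BMP targets Id1 (3680 ± 52.4 and 2782 ± 56.2; -0.40, adjusted p = 7.84e-05 in edgeR's test) and Id3 (-0.26) were lower, as were Rangap1 (-0.20) and Ranbp1 (-0.15). The paralog Ranbp3 did not pass (0.07), nor did Smad1 (-0.14) and Smad5 (-0.08). The count of 5 was 3 without control replicate 2, D-gal replicate 1 or D-gal replicate 3.

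The genes whose pattern over the 6 libraries was most like that of Nfat5, by Pearson's correlation of log2 normalized counts over 10404 genes, were Ttll4 (r = 0.998), Tab2 (0.997) and Luzp1 (0.994). All 3 had their lowest value in control replicate 1, with Luzp1 at 1074 there and between 2073 and 2397 in the other libraries. An r of 0.95 with Nfat5 was exceeded by 30 genes. Those most like Slc6a12 were Itpr1, Gm13340 and Pias1, each with an r of 0.996 and a log2 fold change of 0.24, 0.24 and 0.21, and 346 genes exceeded 0.95. The 6 libraries share their group and their depth across all genes, so these values are given as a description only.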

How the data were processed

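RNA-seq of NOR-10 cells in 3 control and 3 D-gal libraries was re-analysed. Per the labels the processing used HISAT2 (version 2.0.4), and the study's methods name quality control and trimming of reads. The methods describe a small RNA library kit where the labels name an RNA-seq kit. The counting tool, its use of strand and the genome build are not given in the sources used here. The deposited table holds raw counts per gene and FPKM values, which the authors divided by a gene length and by the library total. Of its 34745 identifiers, 34267 are in GENCODE release M21 (GRCm38), 27699 with the same start and end, among them 6 of the 8 members.

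Counts were normalized by TMM, filtered by filterByExpr and tested by edgeR's quasi-likelihood test (edgeR 4.0.16, R 4.3.3) with Benjamini-Hochberg adjustment over all genes, without a covariate. Each standard error was obtained from the fold change and its F statistic. Levels per length divide by the distinct exonic bases of GENCODE. All pairs of replicates differed by more than counting noise, with a chi-square of 6.00 to 9.42 per degree of freedom. Alternatives were DESeq2 (1.42.0), limma (3.58.1) on log2(FPKM + 1), RLE factors, other filters, a replicate block and left-out libraries. The functions were tested on simulated data with 100 changed genes at each log2 size of 1 and 2. At an adjusted p under 0.05, edgeR found 91 and 99 of them. False calls made up 7.77% of edgeR's calls, 8.61% of limma's and 13.3% of DESeq2's, above the nominal share in each. Named are the 8 members, and from each list up to 4 genes past both thresholds or else the 2 with the smallest p; further list genes were named after their values were seen. Members and lists were chosen with earlier results of these data known. Some genes counted in the lists are not reported here by name.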

Additional observations from a re-analysis of the deposited data

How the results depend on the processing

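Directions of all 8 members held in every alternative in which they could be computed. With at least 10 counts in every library, Slc6a12 was not among the genes kept, so the members' median could not be given. That median, 0.48, was between 0.33 and 0.58 with a library left out. Limma on log2(FPKM + 1), a scale that understates low genes, gave 1.76 for Slc6a12 and 120 differentially expressed genes (72 higher and 48 lower) in place of 564 (318 and 246), and a minimum of 10 counts in every library gave 211 higher genes. Ranked by mean level over the libraries of both groups, the members kept 8 of 8 ranks with any library left out and 2 of 8 by the deposited FPKM. The separate group orders given above kept more ranks by the deposited FPKM. In the control group only Nfat5 and Slc5a3 changed places, and in the D-gal group Slc6a6, Slc5a3, Smpd3 and Slc6a12 kept theirs. Of NFAT family genes, 1 passed in place of 2 in DESeq2, in limma and with the replicate block. Left-out libraries moved the genes past the test to 1 to 2 for the NFAT family, 4 to 6 for NFAT5 regulators, 3 to 6 for ceramide enzymes and 3 to 4 for the RAN and SMAD list. No pairing of the libraries by replicate number was seen. Same-numbered deviations had correlations of -0.01, -0.00 and 0.03, and control replicate 1 was closest to D-gal replicate 2. Correlations over all genes can miss cultures or handling shared by 2 libraries, and the labels do not speak to it. With the replicate block 3982 genes passed the adjusted p-value in place of 4661, 3862 of them in both. Of the totals past the test in the 10 lists, the block moved none but that of the NFAT family by more than 1.5 times, and higher and lower genes within a list were not counted separately under it. Depth limits Slc6a12 most, with 4 to 29 reads in control libraries.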
